A study of Mus musculus with 18 samples.

Results

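The genes described here are 10 readouts of the integrated stress response, namely *Atf4*, *Atf5*, *Ddit3*, *Xbp1*, *Trib3*, *Ppp1r15a*, *Ddit4*, *Sesn2*, *Chac1* and *Asns*, taken by name from the 45706 genes counted in 18 mouse kidneys. RNA of whole kidneys was sequenced from C57BL/6 mice (substrain C57BL/6J in the study's methods), 5 with *Cxcl12* KO and 3 controls of that cohort, and 5 with *Myc* KO and 5 controls of theirs, to ask how tubules without the chemokine CXCL12 or the transcription factor MYC respond to injury. All mice were males of 10 to 12 weeks and littermates within a cohort. They carried the floxed gene and the Pax8rtTA transgene, received doxycycline for 14 days with 1 week of washout, and then underwent bilateral ischemia for 22.5 min at 37 °C followed by 12 h of reperfusion. KO mice also carried the TetOCre transgene, which Pax8rtTA switches on in tubule cells, so that other cells of the kidney kept the gene. No uninjured kidney was among the 18, and the 2 knockouts were bred as separate cohorts, so that differences between cohorts and between genotypes across cohorts cannot be told apart.

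The integrated stress response starts when a kinase that senses amino acid shortage, unfolded protein, heme shortage or viral RNA phosphorylates the translation factor eIF2, which slows general protein synthesis while it favours translation of the transcription factor ATF4. ATF4, later joined by its target CHOP (the product of *Ddit3*), raises genes for amino acid synthesis and transport, redox control and, when stress lasts, cell death, and Ppp1r15a brings a phosphatase to eIF2 that ends the response. In the kidney this response is known from ischemic tubules, where it runs beside the unfolded protein response, to which XBP1 belongs. The counts measure RNA per gene, so they report neither eIF2 phosphorylation, nor ATF4 protein, nor the spliced form of *Xbp1*.

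Levels are CPM (reads on a gene per 1e6 reads on all genes) scaled by the TMM method, and a gene was called changed where edgeR's quasi-likelihood test gave a Benjamini-Hochberg adjusted p under 0.05 over all genes tested. A kidney had 12918220 to 29749500 reads on genes, and each of the 10 genes had at least 121 reads in every kidney. The target genes were lower in their own KO, *Cxcl12* with a log2 fold change of -0.73 (adjusted p = 0.094, edgeR) and *Myc* with -1.61 (adjusted p = 8.8e-05, edgeR). In 6 kidneys (2 of *Cxcl12* KO, 2 of *Myc* KO, 2 of *Myc* control and 0 of *Cxcl12* control), under 5% of the reads were unmapped and sequencing was deeper. Markers of other cells also varied. The summed level of 8 neutrophil genes was 35.0 to 165 CPM in *Cxcl12* KO and 21.7 to 30.5 CPM in *Cxcl12* control kidneys. It was 172 to 334 CPM in *Myc* KO and 52.8 to 295 CPM in *Myc* control kidneys. In *Cxcl12* KO, 7 of 7 tested neutrophil genes were higher at an unadjusted p under 0.05 in edgeR's test, against 6.41% of all genes. EdgeR called 0 of them and DESeq2 called 1 higher, where DESeq2 called 2.38% of all genes. The summed level of 8 proximal tubule genes was 4017 to 4557 CPM in *Cxcl12* KO and 4690 to 5535 CPM in *Cxcl12* control kidneys, without overlap. At an unadjusted p under 0.05 in edgeR's test, 3 of the 8 were lower and 0 higher, against 6.63% and 6.41% of all genes. EdgeR called 0 of the 8 and DESeq2 called 1 lower. In the *Myc* cohort the summed proximal tubule level was 3573 to 5575 CPM in KO and 3871 to 4550 CPM in control kidneys, which overlapped. The part of these cells in the *Cxcl12* comparison was not tested. In whole kidneys, fewer cells of a type and less RNA per cell cannot be told apart.

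One kidney stood apart in these 10 genes, though not only in them. *Cxcl12* control 1 had the lowest level of all 18 kidneys in 7 of the 10 genes and lay below the mean of the 18 kidneys in all 10, with a median deviation of -0.80 on the log2 scale. Its depth was ordinary (17235048 reads on genes), and its summed level of 6 injured tubule genes was the lowest of the 18 kidneys at 2702 CPM, against 3642 and 3896 CPM in the other *Cxcl12* controls and 4607 to 6568 CPM elsewhere. Its summed neutrophil level was the lowest of the 18 kidneys too, at 21.7 CPM, against 28.2 and 30.5 CPM in the other *Cxcl12* controls and 35.0 to 334 CPM elsewhere. In both sums all *Cxcl12* controls, and not only this kidney, lay below every kidney of the other groups. The share of all genes that were lowest in *Cxcl12* control 1 was not taken, so the count is not shown to be particular to the 10 genes. The part of that kidney in the *Cxcl12* comparison is given below by values without it.

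ATF4 and its partners of the C/EBP family bind a composite DNA element whose core is often written TGATGNAA, where N is any base. This core was searched on both strands of the RefSeq promoter windows (GRCm38.p6, 250 bases before to 50 bases after each start), and it was present in 3 of the 10 genes, *Chac1*, *Asns* and *Trib3*, against 4.51% of all 27025 genes with a window. It was also present in 7 of 24 other ATF4 and CHOP targets that had a window. The stretches around the matches of *Chac1* (chr2:119351019-119351086, plus strand) and *Asns* (chr6:7693210-7693262, minus strand) are shown because these genes are the cysteine-glutathione and asparagine branches of the response. Capitals mark the match, which in *Chac1* is on the opposite strand.
*Chac1*: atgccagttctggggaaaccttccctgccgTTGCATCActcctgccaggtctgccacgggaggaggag
*Asns*: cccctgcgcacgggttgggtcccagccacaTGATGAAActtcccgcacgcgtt
The match of *Chac1* began 193 bases before the start and that of *Asns* 23 bases before it, while the match of *Trib3*, TTACATCA, began 14 bases after its start. The endoplasmic reticulum stress element (CCAAT and CCACG, 9 bases apart), which ATF6 and XBP1 use, was found in the window of 0 of the 10 genes, of 9 of 21 genes of the ATF6 and XBP1 branch and of 0.137% of all genes. A match describes letters in these windows and not binding.

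All 10 genes were expressed in all 18 kidneys. Per kilobase of exon, *Atf4* (mean 132 RPKM) and *Xbp1* (113 RPKM) were the most abundant, followed by *Ddit4* (52.5), *Atf5* (39.2), *Ppp1r15a* (27.2), *Sesn2* (24.4), *Asns* (22.3), *Ddit3* (20.2), *Chac1* (16.3) and *Trib3* (14.3 RPKM). The ranges over the 18 kidneys overlapped between every neighbouring pair in this order. The genes also differed in how much they varied. The highest kidney exceeded the lowest 6.08-fold for *Chac1*, 4.63-fold for *Trib3*, 4.17-fold for *Ddit3*, 4.14-fold for *Ppp1r15a* and 3.52-fold for *Ddit4*, but only 1.61-fold for *Xbp1* and 1.90-fold for *Sesn2*. *Atf4*, *Atf5* and *Asns* lay in between, at 2.37-fold, 2.35-fold and 2.18-fold.

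**Figure D1:**
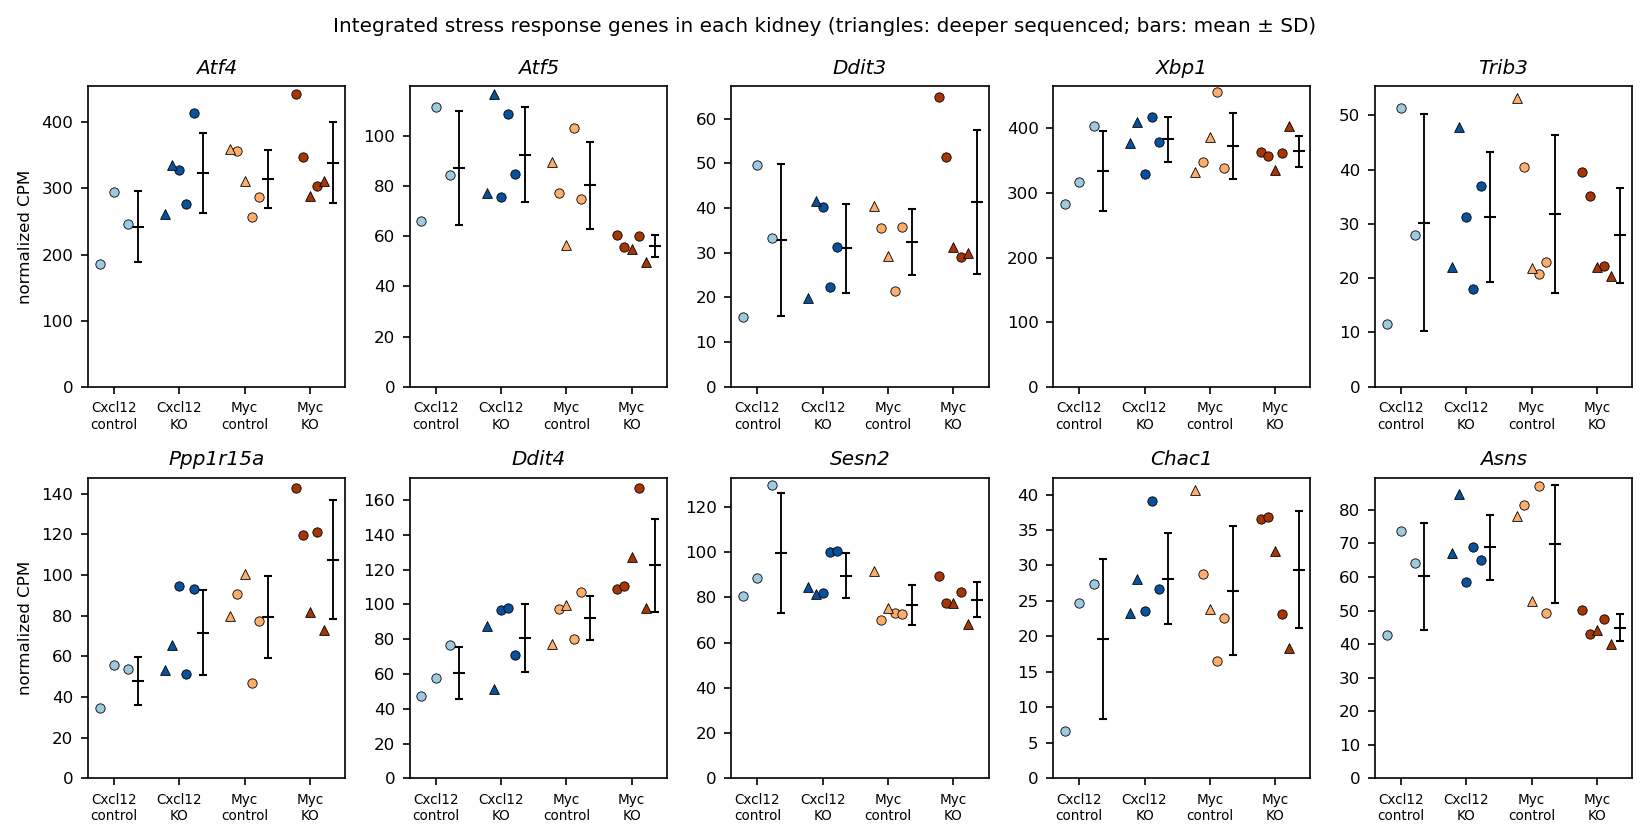
Normalized CPM (y axis, linear from 0) of the 10 genes in each of the 18 kidneys by group (x axis). Each point is 1 kidney, triangles are the 6 more deeply sequenced kidneys, and bars give mean ± SD. *Asns* lies between 39.96 and 50.2 CPM in all *Myc* KO kidneys, and *Cxcl12* control 1, the leftmost point, is lowest for 7 genes.

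None of the 10 genes was called by edgeR's test in either knockout. In *Cxcl12* KO against control kidneys 0 of the 10 were called, where 0 of 15154 genes (0%) were called in all, and at an unadjusted p under 0.05 there were 2 higher genes (*Atf4* and *Ppp1r15a*) against a background of 6.41%. In *Myc* KO against control kidneys 0 of the 10 were called, where 246 of 14936 genes (1.65%) were called, and at an unadjusted p under 0.05 there were 1 higher gene (*Ddit4*) against 10.6% and 2 lower genes (*Asns* and *Atf5*) against 11.2% of all genes. DESeq2 called 0 of the 10 in *Cxcl12* KO (2.38% of all genes) and 2 lower in *Myc* KO (*Asns* and *Atf5*, background 5.01%), and limma-voom called 0 of the 10 in both. The median log2 fold change of the 10 genes was 0.19 in *Cxcl12* KO and 0.08 in *Myc* KO, beside medians of 0.00083 and -0.00083 over all genes tested. Without *Cxcl12* control 1, the *Cxcl12* median was 0.04, and without *Cxcl12* control 2 it was 0.37. The *Myc* median was -0.0052 without *Myc* KO 1 and 0.14 without *Myc* control 1. The *Myc* values were also split by sequencing depth. The log2 ratio of mean CPM between *Myc* KO and control had opposite signs among the more deeply sequenced kidneys (2 against 2) and among the others (3 against 3) in 7 of the 10 genes. It was -0.16 and 0.28 for *Atf4*, -0.18 and 0.65 for *Ddit3*, -0.82 and 0.20 for *Trib3*, -0.22 and 0.83 for *Ppp1r15a*, -0.20 and 0.21 for *Sesn2*, -0.36 and 0.51 for *Chac1*, and 0.04 and -0.08 for *Xbp1*. *Asns* and *Atf5* were lower and *Ddit4* higher in both sets. The share of all genes with opposite signs was not taken, so 7 of 10 is not read as a link with depth. The part of depth was not tested. For none of the 10 genes did KO and control kidneys of one cohort fail to overlap, while 9.45% of all genes lacked overlap for *Cxcl12* and 5.67% for *Myc*.

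The transcription factors came first in the comparison. *Atf4* (chr15:80255184-80257541, plus strand, ENSMUSG00000042406) encodes the central activator of the response. Its level was 261, 336, 329, 277 and 414 CPM in the 5 *Cxcl12* KO kidneys and 186, 295 and 246 CPM in the 3 controls. It was 442, 348, 289, 304 and 312 CPM in *Myc* KO and 359.7, 356, 311, 258 and 288 CPM in *Myc* control kidneys. *Cxcl12* controls 1 and 3 lay below every *Cxcl12* KO kidney and control 2 within the KO range, and *Cxcl12* KO 5 was the highest kidney of its cohort, whereas in the *Myc* cohort *Myc* KO 1 lay above all others. The log2 fold change of *Atf4* was 0.41 in *Cxcl12* KO (SE 0.17, edgeR adjusted p = 0.36) and 0.11 in *Myc* KO (SE 0.13, edgeR adjusted p = 0.65). Without *Cxcl12* control 1, the former was 0.25, and the latter was -0.0044 without *Myc* KO 1.

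*Atf5* (chr7:44812256-44816658, minus strand, ENSMUSG00000038539) encodes a factor translated under the same stress as ATF4 and tied to the mitochondrial stress response. It had 60.4, 55.9, 55.1, 60.1 and 49.7 CPM in *Myc* KO and 89.7, 77.4, 56.6, 103 and 74.98 CPM in *Myc* control kidneys. The KO kidneys were close together at the bottom and overlapped the controls only through *Myc* control 3. The log2 fold change of *Atf5* in *Myc* KO was -0.51 (SE 0.13, adjusted p = 0.072 from edgeR and 0.012 from DESeq2), and over the alternatives other than leaving out a kidney it ran from -0.53 to -0.49 with adjusted p from 0.012 to 0.091. Without *Myc* control 3, edgeR's adjusted p was 0.015 at a log2 fold change of -0.62, and over all kidneys left out in turn it ran from 0.015 to 0.17, with the fold change nearest 0, -0.41, without *Myc* control 4. In the *Cxcl12* cohort, *Atf5* had 77.2, 116, 75.5, 109 and 84.8 CPM in KO and 65.99, 111 and 84.5 CPM in control kidneys, so that the control range enclosed 4 of the 5 KO kidneys. There the log2 fold change was 0.08 (SE 0.19, edgeR adjusted p = 0.88) and ran from -0.08 without *Cxcl12* control 1 to 0.29 without *Cxcl12* control 2. An 82-base stretch of *Atf5* exons (4.11%) overlaps *Il4i1* on the other strand, and reads that could belong to both genes were not counted.

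*Ddit3* (chr10:127290774-127296288, plus strand, ENSMUSG00000025408) encodes CHOP, the factor of prolonged stress. It shares 68 exon bases with *Mars* on the other strand. Its level was 19.8, 41.5, 40.1, 22.3 and 31.3 CPM in *Cxcl12* KO and 15.5, 49.6 and 33.3 CPM in *Cxcl12* control kidneys. In the *Myc* cohort it was 64.9, 51.4, 31.4, 28.99 and 30.01 CPM in KO and 40.4, 35.6, 29.2, 21.4 and 35.7 CPM in control kidneys. *Myc* KO 1 and KO 2 stood above every control, and the other *Myc* KO kidneys lay within the control range. The log2 fold changes of *Ddit3* were -0.09 in *Cxcl12* KO (SE 0.34, edgeR adjusted p = 0.94) and 0.34 in *Myc* KO (SE 0.24, edgeR adjusted p = 0.41), and the latter was 0.12 without *Myc* KO 1. The *Cxcl12* value turned on single controls, from -0.43 without control 1 to 0.34 without control 2.

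*Xbp1* (chr11:5520659-5525893, plus strand, ENSMUSG00000020484) encodes the factor that IRE1 activates by splicing. It was the steadiest of the 10 genes, with 378, 410.0, 329, 417 and 379 CPM in *Cxcl12* KO and 283, 317 and 403 CPM in *Cxcl12* control kidneys. The *Myc* kidneys had 364, 357, 335, 362 and 403 CPM in KO and 333, 347, 386, 456 and 339 CPM in controls. *Cxcl12* controls 1 and 2 lay below every *Cxcl12* KO kidney and control 3 within the KO range. KO and control kidneys were intermixed in the *Myc* cohort. Log2 fold changes of *Xbp1* were 0.19 (SE 0.13, edgeR adjusted p = 0.55) in *Cxcl12* KO and -0.03 (SE 0.10, edgeR adjusted p = 0.89) in *Myc* KO. The former ran from 0.08 without *Cxcl12* control 1 to 0.34 without *Cxcl12* control 3, and the latter from -0.07 without *Myc* KO 5 to 0.05 without *Myc* control 4.

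Of the genes that restrain the response, *Trib3* (chr2:152337422-152344032, minus strand, ENSMUSG00000032715) encodes a pseudokinase that is induced by ATF4 and CHOP and dampens both. In the *Cxcl12* cohort it had 22.003, 47.8, 31.3, 18.04 and 36.96 CPM in KO and 11.5, 51.3 and 27.9 CPM in control kidneys. In the *Myc* cohort the values were 39.5, 35.1, 22.1, 22.2 and 20.4 CPM in KO and 53.2, 40.4, 21.8, 20.7 and 22.9 CPM in control kidneys. The 3 *Cxcl12* controls spanned nearly the whole range of the 18 kidneys, and the highest kidney was *Myc* control 1. *Trib3* had log2 fold changes of 0.04 in *Cxcl12* KO (SE 0.41, edgeR adjusted p = 0.97) and -0.20 in *Myc* KO (SE 0.28, edgeR adjusted p = 0.71), and the former ran from -0.35 without *Cxcl12* control 1 to 0.66 without *Cxcl12* control 2, while the *Myc* value was 0.07 without *Myc* control 1.

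*Ppp1r15a* (chr7:45522916-45526268, minus strand, ENSMUSG00000040435) encodes GADD34, which directs a phosphatase to eIF2. It had 53.3, 65.8, 94.7, 51.3 and 93.02 CPM in *Cxcl12* KO and 34.5, 55.8 and 53.6 CPM in *Cxcl12* control kidneys. *Cxcl12* KO 3 and KO 5 stood above the rest of that cohort, followed by KO 2, and KO 1 and KO 4 lay within the control range. It had 143, 119.9, 81.7, 121 and 72.9 CPM in *Myc* KO and 79.9, 90.8, 101, 47.1 and 77.7 CPM in *Myc* control kidneys. There 3 KO kidneys were above all controls, and the 2 more deeply sequenced ones were not. The log2 fold changes of *Ppp1r15a* were 0.57 in *Cxcl12* KO (SE 0.23, edgeR adjusted p = 0.35) and 0.44 in *Myc* KO (SE 0.21, edgeR adjusted p = 0.25). Without *Cxcl12* control 1, the *Cxcl12* value was 0.38.

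*Ddit4* and *Sesn2* encode REDD1 and sestrin 2, stress-induced inhibitors of the growth kinase mTORC1. *Ddit4* (chr10:59949669-59951834, minus strand, ENSMUSG00000020108) had 109, 111, 127, 167 and 98.1 CPM in *Myc* KO and 77.2, 97.1, 99.4, 80.1 and 107 CPM in *Myc* control kidneys. Of the *Myc* KO kidneys 4 were above every control, and *Myc* KO 5 lay within their range. The log2 fold change was 0.41 in *Myc* KO (SE 0.14, adjusted p = 0.13 from edgeR and 0.064 from DESeq2), and the log2 ratios of mean CPM were 0.35 within the more deeply sequenced kidneys and 0.44 outside them. In the *Cxcl12* cohort *Ddit4* had 87.6, 51.3, 96.5, 97.7 and 70.8 CPM in KO and 47.3, 57.5 and 76.8 CPM in control kidneys, and 3 KO kidneys were above all controls. There its log2 fold change was 0.41 (SE 0.21, edgeR adjusted p = 0.45), and 0.26 without *Cxcl12* control 1. *Ddit4* was the gene among the 10 that moved most closely with the neutrophil level, with a Pearson r of 0.69 between its log2 CPM and that of the neutrophil genes over the 18 kidneys after removal of the group means, and r was 0.55 with the injured tubule genes. These values share their libraries, and the part of other cells in the *Ddit4* level was not tested.

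*Sesn2* (chr4:132492032-132510501, minus strand, ENSMUSG00000028893) had 84.6, 81.3, 81.8, 100.1 and 101 CPM in *Cxcl12* KO and 80.6, 88.5 and 129.9 CPM in *Cxcl12* control kidneys. Its *Myc* levels were 89.6, 77.4, 77.4, 82.2 and 68.2 CPM in KO and 91.8, 69.98, 75.5, 73.2 and 72.7 CPM in control kidneys. KO and control kidneys overlapped in both cohorts, and *Cxcl12* control 3 was the highest of all. Its log2 fold changes were -0.16 in *Cxcl12* KO (SE 0.15, edgeR adjusted p = 0.68) and 0.04 in *Myc* KO (SE 0.09, edgeR adjusted p = 0.82). The former ran from -0.29 without *Cxcl12* control 1 to 0.08 without *Cxcl12* control 3, and the latter from -0.0059 without *Myc* KO 1 to 0.12 without *Myc* control 1.

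Among the effector enzymes, *Chac1* (chr2:119351229-119354381, plus strand, ENSMUSG00000027313) encodes a γ-glutamylcyclotransferase that degrades glutathione. It had 23.2, 28.03, 23.6, 39.1 and 26.7 CPM in *Cxcl12* KO and 6.69, 24.8 and 27.4 CPM in *Cxcl12* control kidneys. The level in *Cxcl12* control 1 was the lowest by a wide margin, and the other controls lay among the KO kidneys. It had 36.5, 36.8, 32.01, 23.2 and 18.4 CPM in *Myc* KO and 40.7, 28.8, 23.8, 16.5 and 22.5 CPM in *Myc* control kidneys, which overlapped over most of their range. *Chac1* had log2 fold changes of 0.52 in *Cxcl12* KO (SE 0.35, edgeR adjusted p = 0.56) and 0.14 in *Myc* KO (SE 0.24, edgeR adjusted p = 0.75). The former ran from 0.10 without *Cxcl12* control 1 to 0.83 without *Cxcl12* control 3, and the latter from 0.016 without *Myc* control 4 to 0.35 without *Myc* control 1.

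*Asns* (chr6:7675169-7693254, minus strand, ENSMUSG00000029752), the asparagine synthetase whose promoter match is shown above, had the largest difference among the 10 genes in *Myc* KO. Its level was 50.2, 42.9, 44.2, 47.4 and 39.96 CPM in *Myc* KO and 78.1, 81.6, 52.9, 87.3 and 49.2 CPM in *Myc* control kidneys, with means of 44.9 ± 3.97 and 69.8 ± 17.5 CPM (SD, n = 5 each). All KO kidneys lay at or below 50.2 CPM, and the groups overlapped only because *Myc* control 5 fell below *Myc* KO 1. The log2 fold change was -0.63, a level 0.644-fold that of the controls (SE 0.15, adjusted p = 0.059 from edgeR and 0.0049 from DESeq2). It was -0.64 by the ratio of means within the more deeply sequenced kidneys and -0.63 outside them. Over the alternatives other than leaving out a kidney, the log2 fold change of *Asns* ran from -0.65 to -0.60 with adjusted p from 0.0049 to 0.11, and edgeR's adjusted p was 0.023 without *Myc* control 3 and 0.038 without *Myc* control 5. Over all kidneys left out in turn edgeR's adjusted p for *Asns* ran from 0.023 to 0.15, with the fold change nearest 0, -0.54, without *Myc* control 4. In the *Cxcl12* cohort *Asns* had 67.2, 84.8, 58.6, 68.9 and 64.9 CPM in KO and 42.7, 73.6 and 64.1 CPM in control kidneys, with the controls on both sides of most KO kidneys. Its log2 fold change there was 0.19 (SE 0.17, edgeR adjusted p = 0.65), and ran from -0.0023 without *Cxcl12* control 1 to 0.36 without *Cxcl12* control 2. Endothelial and podocyte genes moved against *Asns*, with r of -0.54 and -0.55 over the 18 kidneys after removal of the group means. Proximal tubule genes moved with *Asns*, at r = 0.50. The summed level of 5 endothelial genes was 762 to 1133 CPM in *Myc* KO and 553 to 959 CPM in *Myc* control kidneys. That of the proximal tubule genes was 3573 to 5575 CPM in *Myc* KO and 3871 to 4550 CPM in *Myc* control kidneys. The part of these cells in the *Asns* level was not tested.

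**Figure D2:**
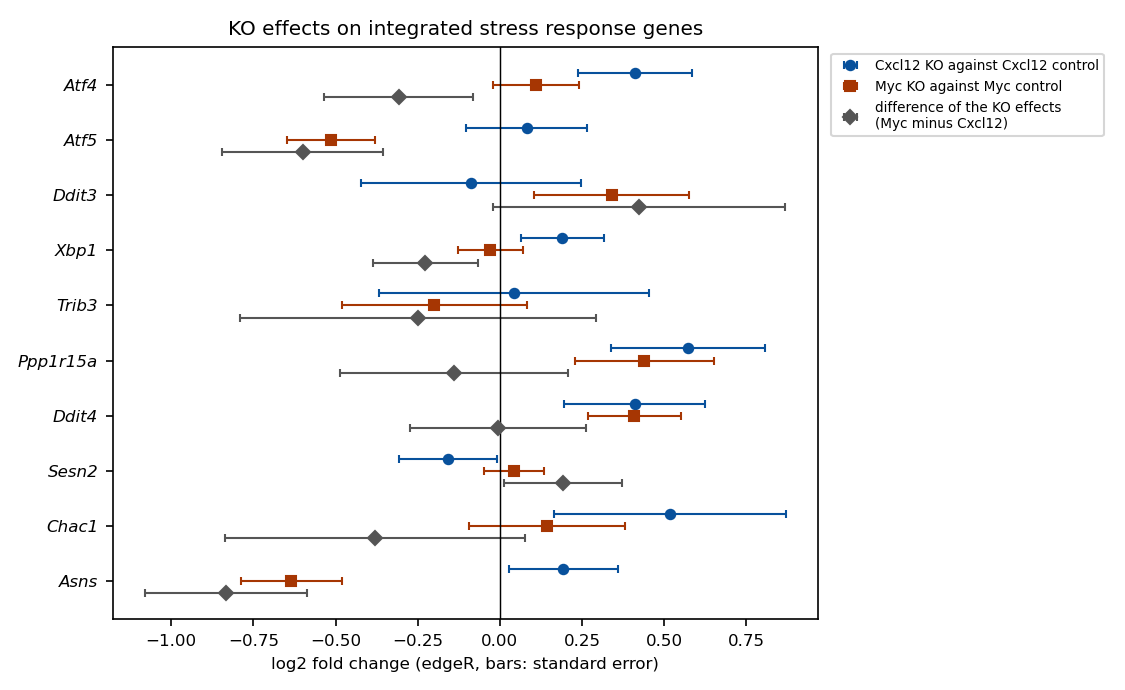
Log2 fold change (x axis) of the 10 genes (y axis) in *Cxcl12* KO, in *Myc* KO and as the difference of both effects, from edgeR. Bars are standard errors. *Asns* and *Atf5* have the lowest *Myc* KO values, -0.63 and -0.51, and *Ppp1r15a* the highest values in both knockouts, 0.57 and 0.44.

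Whether the knockouts differed in their effects was tested over the 18 kidneys. For 0 of the 10 genes was the difference of the KO effects called by edgeR (0.0692% of 15903 genes), and at an unadjusted p under 0.05 there were 2 lower genes, *Asns* and *Atf5*, against 6.77% of all genes. DESeq2 called *Asns* (adjusted p = 0.042, background 2.19% lower). The difference (*Myc* minus *Cxcl12*) was -0.83 on the log2 scale for *Asns* (SE 0.25, edgeR adjusted p = 0.15) and -0.60 for *Atf5* (SE 0.24, edgeR adjusted p = 0.33). The median of the 10 differences was -0.24 beside -0.0065 over all genes, and it was 0.05 without *Cxcl12* control 1 and -0.37 without *Cxcl12* control 2.

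Side by side, all *Cxcl12* KO kidneys lay above all *Myc* KO kidneys in *Atf5* and *Asns* and below them in *Ddit4*, which makes 3 of 10 genes without overlap against 10.2% of all genes. Between the control groups only *Ddit4* did not overlap, with *Cxcl12* controls lower (12.1% of all genes). EdgeR called 0 of the 10 genes between the controls (1.99% of all genes), with *Ddit4*, *Ppp1r15a* and *Atf4* lower and *Sesn2* higher in the *Cxcl12* controls at an unadjusted p under 0.05 (backgrounds 9.42% lower and 8.28% higher), and DESeq2 called 0 of the 10 (5.46%). The log2 difference of *Cxcl12* from *Myc* controls was -0.61 for *Ddit4* (SE 0.21, edgeR adjusted p = 0.13) and -0.73 for *Ppp1r15a* (SE 0.27, edgeR adjusted p = 0.16). Cell markers differed between these control groups too. EdgeR called 4 of 8 neutrophil genes lower in the *Cxcl12* controls, where 178 of 15903 genes were called lower. It also called lower 2 of 8 macrophage, 1 of 6 injured tubule and 1 of 2 tested B and plasma cell genes. Of the 8 proximal tubule genes 1 was called higher, where 138 of 15903 genes were. For endothelial and podocyte genes the number called was 0.

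The 10 genes did not vary from kidney to kidney as 1 unit. After removal of the group means, *Ddit3* and *Trib3* had a Pearson r of 0.89 over the 18 kidneys, *Atf4* and *Trib3* 0.86, *Atf4* and *Ddit3* 0.85, and *Atf4* and *Ppp1r15a* 0.78. *Atf5* and *Asns* formed another pair at 0.82, with r of 0.23 and 0.37 to *Atf4*. *Ddit4* had r between -0.26 and 0.34 with the other 9 genes, and the lowest of the 45 values was -0.29, between *Xbp1* and *Ppp1r15a*. In all, 12 of the 45 pairs exceeded 0.5 and 11 were below 0, with a median of 0.34. The r of *Chac1* with *Trib3* moved with single kidneys, being 0.69 over all, 0.48 without *Cxcl12* control 1 and 0.85 without *Cxcl12* KO 4. The r of *Ddit3* and *Trib3* was 0.84 without *Cxcl12* control 1. These correlations are descriptions across kidneys that share library and depth between the genes.

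**Figure D3:**
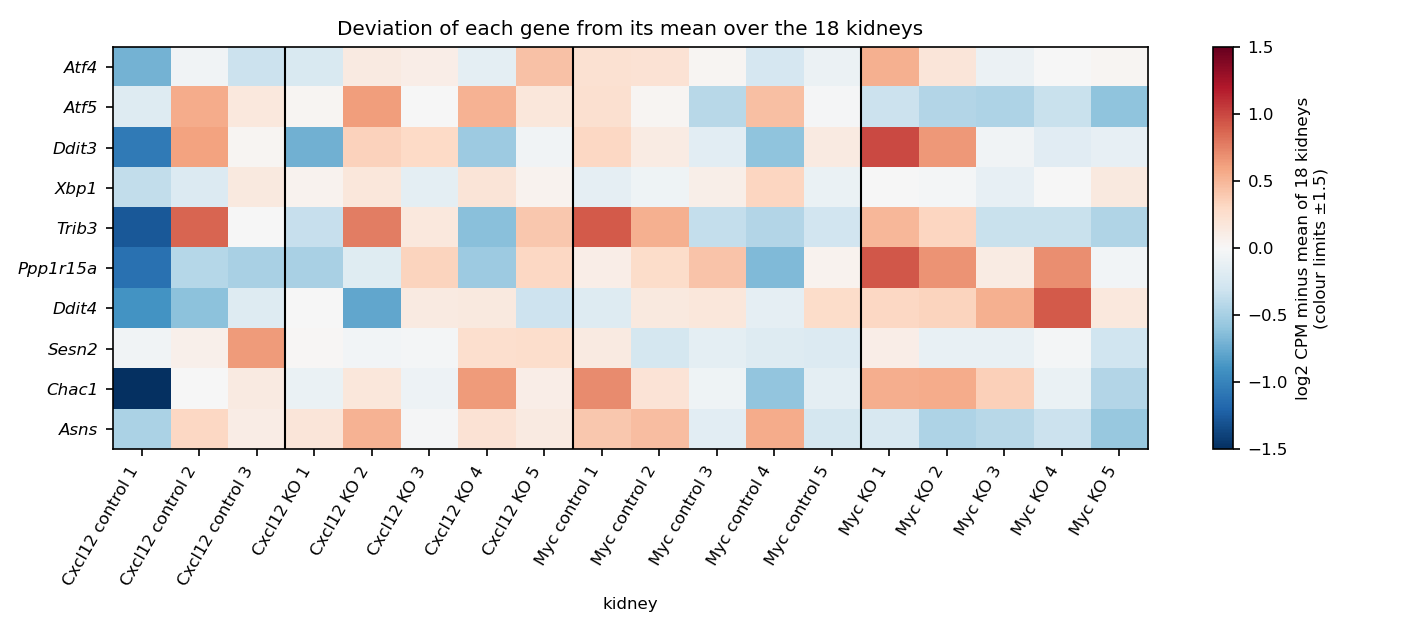
Log2 CPM of each gene (y axis) in each kidney (x axis, by group) minus its mean over the 18 kidneys, in colour from blue (lower) to red (higher), limited at ±1.5. *Cxcl12* control 1 is blue throughout (median -0.80), and *Myc* KO 1 is red for *Atf4*, *Ddit3* and *Ppp1r15a*, in which it was the highest kidney.

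The kidneys that stood highest differed by gene. *Myc* KO 1 was highest for *Atf4*, *Ddit3* and *Ppp1r15a*, *Myc* control 1 for *Trib3* and *Chac1*, and *Myc* control 4 for *Xbp1* and *Asns*. At the low end only 2 kidneys appeared, *Cxcl12* control 1 for 7 genes and *Myc* KO 5 for *Atf5*, *Sesn2* and *Asns*. Among genes outside the stress, cell marker and target gene lists, *Cyp4a12a* (r = 0.84) followed the mean of the 10 genes most closely. *Nat8f5* (0.84), *Stbd1* (0.83), *Kctd15* (0.83) and *Noc2l* (0.82) came next, again over the 18 kidneys with group means removed. The 13768 genes compared included the listed genes, which were left out of this ranking. *Cxcl12* control 1 was the lowest of the 18 kidneys for *Cyp4a12a* (4.43 CPM), *Nat8f5* (16.2 CPM) and *Stbd1* (8.46 CPM) too, but not for *Kctd15* and *Noc2l*. The r of these genes were not taken without that kidney, so how far they rest on it is not known. *Cyp4a12a* encodes a fatty acid hydroxylase of the male kidney.

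**Figure D4:**
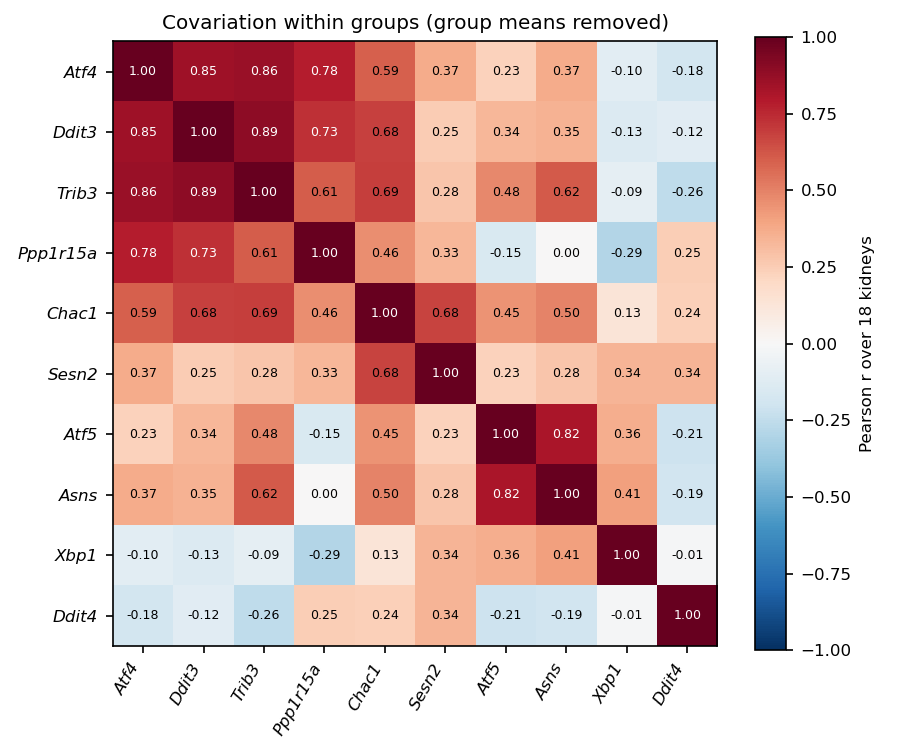
Pearson r between the 10 genes over the 18 kidneys after removal of group means, with the value in each cell and colour from -1 (blue) to 1 (red). *Atf4*, *Ddit3* and *Trib3* form 1 block (0.85 to 0.89) and *Atf5* with *Asns* another (0.82).

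Upstream of ATF4, the list of 17 eIF2 kinases, eIF2 and eIF2B subunits and regulators had 0 genes called in *Cxcl12* KO (0 at an unadjusted p under 0.05 and 0 by DESeq2). In *Myc* KO 3 of the 17 fell and 0 rose (1.29% of all genes were called lower). *Eif2s1*, the subunit that the kinases phosphorylate, had 55.6, 52.1, 58.9, 57.6 and 64.3 CPM in *Myc* KO and 75.3, 77.9, 76.3, 80.9 and 69.2 CPM in control kidneys, without overlap. Its log2 fold change was -0.39 (SE 0.07, edgeR adjusted p = 0.026), and *Eif2b3* and *Eif2b1*, subunits of the exchange factor that phosphorylated eIF2 inhibits, had -0.40 (edgeR adjusted p = 0.034) and -0.30 (edgeR adjusted p = 0.050). The kinase gene *Eif2ak3* (PERK) had 0.23 (edgeR adjusted p = 0.19). The median of the list was -0.16 in *Myc* KO and 0.05 in *Cxcl12* KO.

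Downstream, the list of 30 other ATF4 and CHOP targets and partners had 5 genes that fell and 0 that rose in *Myc* KO (1.29% of all genes were called lower), with a median log2 fold change of -0.23. At an unadjusted p under 0.05 there were 14 lower and 2 higher genes, against 11.2% and 10.6% of all genes, and DESeq2 called 8 lower and 2 higher, against 5.01% and 3.76%. *Phgdh*, the first enzyme of serine synthesis, had 6.88, 10.5, 11.5, 12.98 and 10.8 CPM in *Myc* KO and 16.7, 17.5, 14.7, 20.7 and 16.7 CPM in *Myc* control kidneys, without overlap (-0.70, edgeR adjusted p = 0.038). *Mthfd2*, an enzyme of mitochondrial folate metabolism, had 40.3, 39.6, 37.2, 37.3 and 33.4 CPM in *Myc* KO and 71.7, 71.1, 44.2, 67.1 and 47.9 CPM in control kidneys (-0.68, edgeR adjusted p = 0.031). Both serve amino acid and one-carbon supply, as do *Aldh18a1* of proline synthesis (-0.62, edgeR adjusted p = 0.018) and the glycine transporter *Slc6a9* (-0.73, edgeR adjusted p = 0.049). The fifth was *Eif4ebp1*, an inhibitor of cap-dependent translation (-0.39, edgeR adjusted p = 0.04). *Fgf21*, a stress-induced hormone, had the lowest value of the list at -1.43 without passing the test (edgeR adjusted p = 0.16). It was -0.69 without *Myc* control 4, which had 17.2 CPM against 1.90 to 5.83 CPM in the other controls. The list's highest value was that of the early stress factor *Atf3*, 0.82 (edgeR adjusted p = 0.23). For *Atf3* it was 0.58 without *Myc* control 4, which had 25.3 CPM against 71.0 to 146 CPM in the other controls. The log2 ratios of mean CPM of *Atf3* were 0.09 within the more deeply sequenced kidneys and 1.23 outside them.

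Whether the 8 genes called in these lists passed the threshold depended on single kidneys, while their direction did not. Without 1 kidney, the number of them still called ranged from 8 (without *Myc* control 3) to 0 (without *Myc* KO 2 or without *Myc* control 2), was 1 without *Myc* KO 3, without *Myc* KO 4 or without *Myc* control 4, 2 without *Myc* KO 5, 3 without *Myc* control 5, 4 without *Myc* control 1 and 5 without *Myc* KO 1, and all 8 estimates stayed below 0 each time. Over all genes, the number called in *Myc* KO moved likewise, from 21 without *Myc* KO 2 to 877 without *Myc* control 3. DESeq2 and the fit with the deeper group as a covariate called all 8 list genes, limma-voom called 6, and the strand columns gave 4 and 5. Outside the more deeply sequenced kidneys 0 of the 8 were called, with log2 ratios of mean CPM from -0.91 (*Slc6a9*) to -0.32 (*Eif2b1*).

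In *Cxcl12* KO edgeR called 0 of these 30 genes, with 5 higher and 2 lower at an unadjusted p under 0.05 (6.41% and 6.63% of all genes) and 1 higher by DESeq2, and their median log2 fold change was 0.11. The 26 genes of the ATF6 and XBP1 branch had 0 called in either knockout by edgeR and by DESeq2, with 1 higher in *Cxcl12* KO and 1 higher and 2 lower in *Myc* KO at an unadjusted p under 0.05 (6.41% of all genes, then 10.6% and 11.2%), and medians of 0.13 and -0.03. Their chaperone *Hspa5* (BiP) had 1001, 978, 814, 836 and 922 CPM in *Cxcl12* KO and 773, 809 and 587 CPM in *Cxcl12* control kidneys. These did not overlap, as for 9.45% of all genes, at a log2 fold change of 0.33 (SE 0.13, edgeR adjusted p = 0.32) that was 0.20 without *Cxcl12* control 3.

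**Figure D5:**
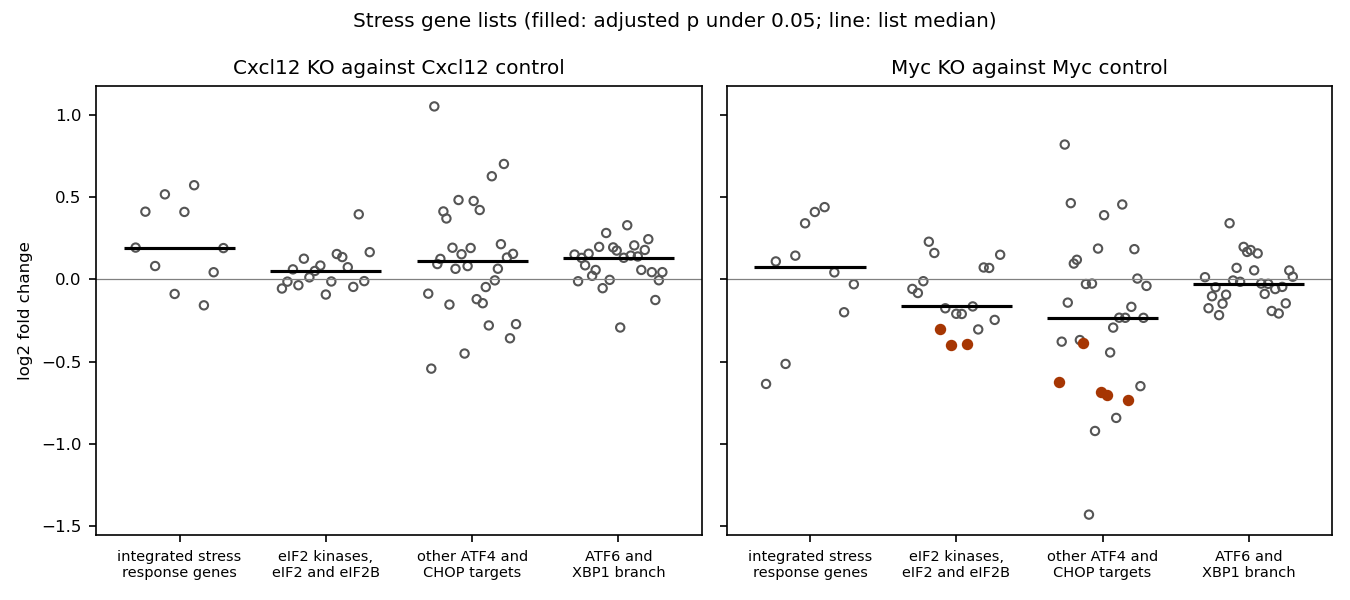
Log2 fold change (y axis) of single genes in the 10 genes and 3 further lists (x axis) for each knockout. Filled points passed edgeR's adjusted p of 0.05, lines are list medians. The 8 filled points, all below 0, are in *Myc* KO, 3 in the eIF2 list and 5 among the other ATF4 and CHOP targets.

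Genes with the TGATGNAA core spread widely. Over the 10 genes with the core (3 of the genes described here and 7 further targets), log2 fold changes in *Myc* KO ran from -1.43 to 0.82 with a median of 0.05, and over the 24 without it the median was -0.15. In *Cxcl12* KO the medians were 0.33 with and 0.11 without the core.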

How the data were processed

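RNA of 18 whole kidneys in 4 groups was analysed. The authors trimmed the reads with Trimmomatic 0.32, aligned them to GRCm38 and counted them with STAR 2.4.0, and deposited raw read counts per gene without normalization. The annotation release is not given in the sources used here. The count column that ignores strand was used, without its 4 summary lines, which held 29.4% to 32.6% of the reads.

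KO and control kidneys of a cohort were compared in R 4.3.3 with edgeR 4.0.16, using filterByExpr, TMM scaling and the quasi-likelihood test. Differences between KO effects and between controls were fitted over all 18 kidneys. P-values were adjusted over all genes tested by the Benjamini-Hochberg method. The standard error (SE) of a log2 fold change was taken as the fold change over the square root of F. CPM are shown for 1 scaling over 18 kidneys, and RPKM divide them by the exon length in GENCODE vM21. Correlations used log2 CPM with a prior count of 2. The smallest replicate group had 3 kidneys. Nothing in the sources shows pooling, so each kidney counted as 1 sample.

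Alternatives were DESeq2 1.42.0, limma 3.58.1 with voom, other size factors, no filter, either single-strand column, a replicate block, the deeper group as a covariate or left out, 1 fit over 18 kidneys, and leaving out each kidney. The deeper group (under 5% unmapped reads) is defined from the mapping shares and is not a labelled batch. The fits were tested on simulated data. Genes were named by rule: the 10 genes, both targets and the genes called in the 3 further lists. The extremes of each list (not all are printed) and the 5 genes outside all lists most like the mean of the 10 were also named. *Il4i1* and *Mars* are named only as overlapping genes. The 10 genes and the lists were chosen with earlier results of these data known. Python 3.11.15 with pandas 2.3.3, numpy 2.4.6 and matplotlib 3.10.9 made tables and plots.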

Additional observations from a re-analysis of the deposited data

Results flagged for a closer look

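*Sesn2* in *Myc* control 1 (91.8 CPM) lay far above the other *Myc* controls, with a gap of 0.748 of the range of the 5 kidneys, past the critical value of 0.71. Of 30 groups of 5 kidneys examined (10 genes in 3 groups), this was the single such case, and chance gives about 1 in 20. The effect on *Myc* itself differed between the knockouts by -1.83 on the log2 scale (*Myc* minus *Cxcl12*, edgeR adjusted p = 0.00011), *Myc* being the gene deleted in one of them.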

How the results depend on the processing

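*Asns* and *Atf5* kept a lower level in *Myc* KO under every alternative, but their side of the threshold varied. Of the 10 genes, the number called in *Myc* KO was 2 (*Asns* and *Atf5*) with DESeq2 or with the deeper group as a covariate, 1 (*Asns*) without the filter, with the other strand column or with 1 fit over 18 kidneys, 0 otherwise, and 0 to 2 when 1 kidney was left out (both without *Myc* control 3, *Asns* without *Myc* control 5). In *Cxcl12* KO and between the controls it was 0 under every alternative, and for the difference of the effects it was 1 (*Asns*) with DESeq2.

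Counts over all genes moved more. In *Cxcl12* KO they were 353 with DESeq2, 214 without the filter, 9 with one strand column, 123 with the deeper group as a covariate, 80 outside it, 25 with 1 fit, and 0 to 15 when 1 kidney was left out. In *Myc* KO they were 1131 with DESeq2, 954 with the covariate, 8 outside the deeper group, 683 with 1 fit and 21 (without *Myc* KO 2) to 877 (without *Myc* control 3). For the difference they were 324 with DESeq2, 3 with limma-voom, 4 and 7 with the strand columns, 133 with the covariate, 44 outside the deeper group and 1 to 75 without 1 kidney. Between the controls they were 801 with DESeq2 and 49 (without *Cxcl12* control 1) to 611 (without *Myc* control 4). The cause of these shifts was not tested.

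Whether equal replicate numbers pair the kidneys cannot be settled from so few pairs. The deviations of equally numbered kidneys correlated at a mean r of 0.068 for *Cxcl12* (3 pairs) and 0.053 for *Myc* (5 pairs), with single values from -0.21 to 0.40. Unequally numbered kidneys had a mean r of -0.017 for *Cxcl12* (12 pairs) and -0.011 for *Myc* (20 pairs), with single values from -0.52 to 0.48. With the replicate block, 0 genes were called in *Cxcl12* KO, 18 in *Myc* KO and 1 for the difference, with 0 of the 10 genes and 0 of the 8 genes of the further lists among them. Under this block, *Ddit3* in *Cxcl12* KO had 0.1073 and *Ddit4* in the difference 0.0425.

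Uncalled log2 fold changes near 0 changed sign. In *Cxcl12* KO, *Ddit3* had 0.0041 with one strand column, and *Trib3* had -0.0146 with the other, -0.0836 with the covariate and -0.0893 outside the deeper group, where *Trib3* in *Myc* KO had 0.2088. In the difference, *Ddit4* had 0.0231 with the other strand column, and *Trib3* and *Ppp1r15a* had 0.2979 and 0.1191 outside the deeper group. Leaving out 1 kidney in *Cxcl12* KO gave -0.0023 to 0.3642 for *Asns*, -0.0847 to 0.2939 for *Atf5*, -0.4255 to 0.3393 for *Ddit3*, -0.2892 to 0.0756 for *Sesn2* and -0.3456 to 0.6635 for *Trib3*. In *Myc* KO the ranges were -0.0044 to 0.1628 for *Atf4*, -0.0059 to 0.1153 for *Sesn2*, -0.3532 to 0.0709 for *Trib3* and -0.0689 to 0.0532 for *Xbp1*. In the difference they were -0.6966 to 0.0366 for *Chac1*, -0.0092 to 0.7657 for *Ddit3*, -0.2136 to 0.1507 for *Ddit4*, -0.2697 to 0.0582 for *Ppp1r15a*, -0.0448 to 0.3308 for *Sesn2* and -0.8767 to 0.1427 for *Trib3*.

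With 3 controls, the standard errors in *Cxcl12* KO were 0.41 for *Trib3* and 0.35 for *Chac1*, beside 0.28 and 0.24 in *Myc* KO.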
